A study of Nicotiana tabacum with 2 samples.

Results

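Isolated accessible regions are stretches of open chromatin with no other called region within 100 kb on either side. They were chosen from tobacco callus profiled by ATAC-seq, in which the transposase Tn5 cuts exposed DNA and attaches sequencing adapters. The regions called on medium with 0.1 mg/L and with 0.5 mg/L of the synthetic auxin naphthaleneacetic acid (NAA) were merged wherever they overlapped by at least 1 bp on the 19 chromosomes of the Niben261 assembly. A merged region was isolated when more than 100000 bp separated it from the next merged region on both sides. The first and last region of each chromosome have a single neighbour and were left out. Of 54066 merged regions, 1789 were isolated, or 3.31% (95% interval 3.16 to 3.46%). The positions of the called regions thus chose the members, and neither width, strength nor presence in a list entered the choice directly. Because the regions were selected from these lists, every comparison with the remaining 52277 regions is given as a description, without a test.

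The 2 libraries came from callus of pooled explants, and each NAA concentration was represented by 1 library and 1 list. By their labels, culture lasted 2 weeks at 0.1 mg/L and 3 weeks at 0.5 mg/L, whereas the methods describe a common culture time, so concentration and the labelled time cannot be told apart. The study's medium for tobacco callus and shoots also held the cytokinin benzyladenine, kanamycin and Timentin at each NAA concentration, and whether the profiled explants were on this full medium is not stated. The labels name Nicotiana tabacum, whereas the study's seeds and the assembly are N. benthamiana. There were no replicates, so intervals cover counting error over regions and not the spread between cultures.

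In plants, open chromatin is concentrated at promoters and at enhancers, where transcription factors displace nucleosomes. Species with large genomes also carry open sites far from genes, inside long stretches of closed chromatin that are commonly rich in transposable elements. Auxin acts through ARF transcription factors, which bind such open sites and are held in check by Aux/IAA repressors. Genes, repeats and DNA sequence at the isolated regions were not analysed here, because no annotation or genome of the Niben261 assembly was used.

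The libraries differed in background level, taken here as a measure of depth, and this bears on every count below. The caller's genome-wide background, recovered from the deposited fold and p-values, was 0.747 fragments at 0.1 mg/L and 0.172 fragments at 0.5 mg/L. Summit pileups differed less, with a median ratio (0.5 over 0.1 mg/L) of 0.679 in 430 isolated places shared by both lists. Background and summit pileup thus did not differ by the same factor between the libraries, and the reason was not tested. No region of the 0.1 mg/L list was under 207 bp wide, and none of the 0.5 mg/L list was under 150 bp. A region missing from a list may therefore have been too weak or too narrow in that library to be called. Its width in the other list does not settle this, and the part of depth in the presence of a region was not tested.

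The isolated regions stood in long empty stretches. The nearer neighbour lay at a median of 125 kb (quartiles 111 and 151 kb), against 13.6 kb (quartiles 5.56 and 31.6 kb) over all merged regions with a neighbour on both sides. The farther neighbour lay at a median of 195 kb (quartiles 152 and 259 kb). Between its 2 neighbours an isolated region had a median of 329 kb free of any other region, and the range was 203 to 1535 kb. The gaps that flank isolated regions numbered 3180 and made up 567 Mb, or 19.3% of the 2936 Mb between the first and last regions of the chromosomes. Gaps over 100 kb were common elsewhere too. There were 8883 of them among 54047 gaps, and they made up 52.5% of that length. Most long gaps thus bordered regions that had a close neighbour on their other side.

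Most isolated regions stood alone between regions of another kind, and 705 (39.4%) had another isolated region as a direct neighbour. There were 1084 that occurred singly, 238 runs of 2, 49 runs of 3, 18 runs of 4 and 2 runs of 5. The longer run of 5 spanned 893 kb of chromosome 9, from 48691201 to 49584154, and all 5 of its regions were found only at 0.1 mg/L. They were 271, 323, 451, 286 and 223 bp wide, and their folds over the local background were 4.01, 3.60, 4.47, 4.53 and 3.43. All were in the weaker part of the 0.1 mg/L list, with −log10 q-values of 2.204, 2.47, 2.91, 2.98 and 1.49. The other run of 5 lay on the same chromosome, from 39851366 to 40495068, and held 2 regions found only at 0.1 mg/L and 3 found only at 0.5 mg/L. A run of 4 on chromosome 3, from 184643818 to 185760448, was different in makeup, with 3 of its regions found in both lists.

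The region farthest from any neighbour lay on chromosome 2 at 65623370 to 65623638. The distance was 1000 kb (999638 bp) to the left and 535 kb to the right. It was found only at 0.5 mg/L, was 269 bp wide and was weak, with a fold of 4.13, a −log10 q-value of 2.73 and a summit pileup of 4 fragments. The next, on chromosome 3 at 185121161 to 185121515, lay 477 and 464 kb from its neighbours and was found in both lists. Its fold was 10.7 at 0.1 mg/L, where its summit pileup was 20 fragments, and 8.93 at 0.5 mg/L, where it was 11 fragments. The summits at 185121307 and 185121304 nearly coincided. It also belonged to the run of 4 on chromosome 3. The third, on chromosome 17 at 20847919 to 20848119, lay 460 and 469 kb from its neighbours. It was found only at 0.5 mg/L with a fold of 3.41 and a summit pileup of 3 fragments, the lowest of any isolated region in that list.

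At the limit of 100000 bp the values passed without a break. The 3 isolated regions just over it had a neighbour at 100070, 100073 and 100079 bp. They lay on chromosome 11 at 24655847 to 24656296 (in both lists), on chromosome 17 at 95039918 to 95040198 (in both lists) and on chromosome 11 at 46250388 to 46250538 (only at 0.5 mg/L). The 3 regions just short of it had a neighbour at 100000, 99979 and 99974 bp. These were on chromosome 18 at 114024721 to 114024941, on chromosome 1 at 11218713 to 11218987 and on chromosome 8 at 106505210 to 106505487, all found only at 0.1 mg/L.

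Every chromosome carried isolated regions, from 72 on chromosome 9 to 132 on chromosome 4. Relative to the length between the first and last region, there were 0.609 per Mb over all chromosomes. The density was highest on chromosome 11, with 119 regions and 0.829 per Mb (95% Poisson interval 0.687 to 0.992). It was lowest on chromosome 7, with 76 regions and 0.498 per Mb (0.393 to 0.624). These intervals did not overlap, but the chromosomes are the extremes of 19. Chromosome 11 also had fewer merged regions of all kinds, 17.4 per Mb, than chromosome 7 with 20.6 per Mb. The fewest merged regions, however, were on chromosome 18, with 16.5 per Mb and 0.620 isolated regions per Mb. Isolated regions made up 4.75% of the merged regions on chromosome 11 (3.95 to 5.66%), and the lowest share, 2.34% (1.85 to 2.92%), was on chromosome 6.

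**Figure D1:**
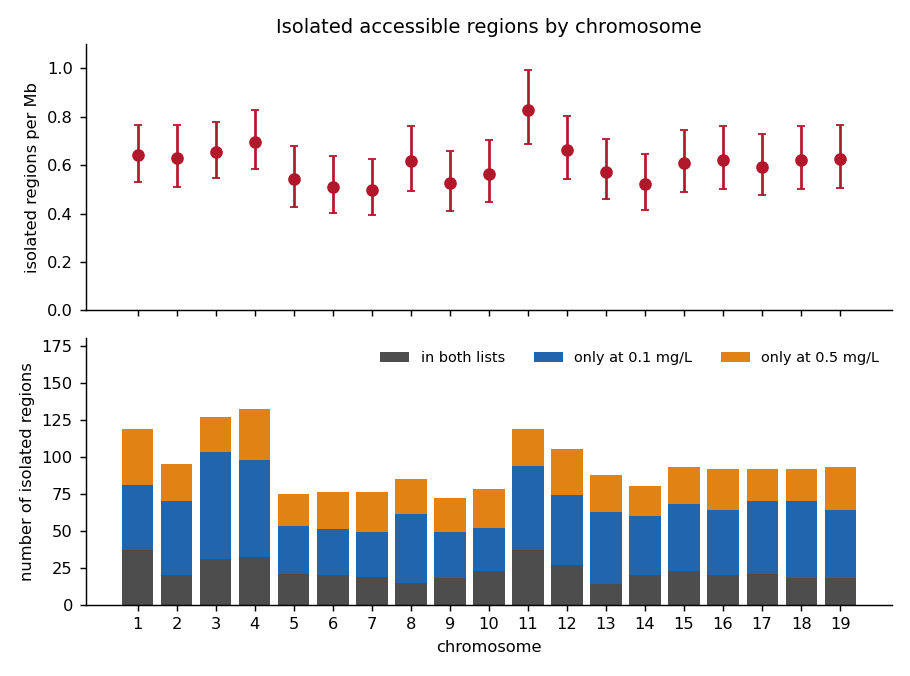
Isolated accessible regions on each of the 19 chromosomes, as number per Mb of the length between first and last region (upper panel, bars are 95% Poisson intervals) and as number split by the list in which they were found (lower panel). Chromosome 11 has the highest density, 0.829 per Mb, and chromosome 7 the lowest, 0.498 per Mb.

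The length between the first and last region of each chromosome was cut into 10 equal segments. Isolated regions were spread over all of them but were sparser at the ends. The first and last segments together held 16.5% of them (14.8 to 18.3%), against 22.5% of the other regions (22.2 to 22.9%). Members were chosen by sparseness of neighbours, so fewer of them where other regions are dense is not independent of the choice. Segments 3 and 4 held 11.8% each and segment 7 held 11.7%, where the other regions had 9.41, 9.40 and 9.40%. The central 20% of the length held 19.96% of the isolated regions (18.1 to 21.9%) and 19.2% of the others (18.8 to 19.5%), so the center did not stand out. The curve had a dip in segment 5, with 8.94% of the isolated regions.

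**Figure D2:**
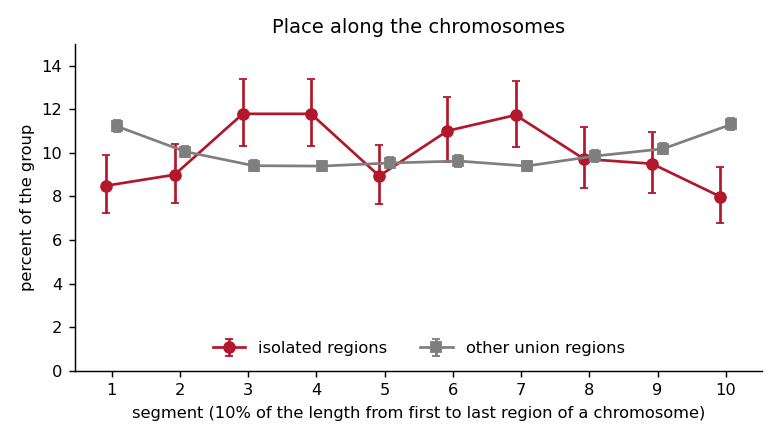
Percent of the 1789 isolated regions and of the 52277 other merged regions in each of 10 equal segments of the length between the first and last region of a chromosome, with 95% Clopper-Pearson intervals. Isolated regions hold 8.50% in the first segment and 7.99% in the last, where the other regions hold 11.2 and 11.3%.

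Averaging over chromosomes hid a strong lopsidedness on some of them. On chromosome 7, 62 isolated regions lay before the midpoint of the covered length and 14 after it, so that 81.6% (71.0 to 89.5%) lay in the first part, which held 36.4% of the other regions. Chromosome 9 leaned the same way, with 50 before and 22 after the midpoint (69.4%, 57.5 to 79.8%), against 39.6% of the others. Chromosome 8 leaned the opposite way, with 24 before and 61 after (28.2%, 19 to 39.04%), against 64.8% of the others. On chromosome 10 the numbers were 23 and 55 (29.5%, 19.7 to 40.9%), against 60.03% of the others. On each of these chromosomes the isolated regions were thus concentrated on the side with fewer other regions. These chromosomes were picked after the values had been seen, and sparseness of neighbours is what the choice of members used.

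In windows of 5 Mb the number of isolated regions had a median of 3 (quartiles 1 and 4), and 57 of 576 windows had none. The richest window, chromosome 10 from 75000001 to 80000000, held 14 isolated regions among 49 merged regions, where the median window had 89 merged regions. The windows on chromosome 11 from 15000001 to 20000000 and on chromosome 9 from 40000001 to 45000000 each held 10, among 38 and 49 merged regions. So did those on chromosome 4 from 60000001 to 65000000 and on chromosome 16 from 140000001 to 145000000, among 56 merged regions each. The window of chromosome 11 lay around a run of 4 isolated regions, from 18508870 to 19456554. Windows were ranked by this number, so they are given as places only.

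Of the 1789 isolated regions, 434 were found in both lists, 860 only at 0.1 mg/L and 495 only at 0.5 mg/L. As a share, 24.3% (22.3 to 26.3%) were found in both, beside 28.8% of all merged regions. Found only at 0.1 mg/L were 48.1% (45.7 to 50.4%), beside 42.5% of all. Found only at 0.5 mg/L were 27.7% (25.6 to 29.8%), beside 28.7% of all. Isolated regions were thus less often in both lists and more often only in the 0.1 mg/L list than the merged regions as a whole. That list came from the library taken here as the deeper. The share found only at 0.5 mg/L was close to that background. Among regions with q-values under 1e-05, with isolation computed anew, the excess at 0.1 mg/L was not present, at 22.8% for isolated and 23.5% for other regions. The share in both lists was 36.4% (35.0 to 37.9%) for isolated regions, an interval that took in the 37.8% of the others. The share only at 0.5 mg/L was then 40.8% for isolated and 38.7% for other regions, the opposite order to that of all regions (27.7 and 28.8%). For each isolated region found only at 0.5 mg/L there were 1.74 found only at 0.1 mg/L, against 1.47 among the other regions. By definition, an isolated region found in only 1 list had no region of the other list within 100 kb.

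The makeup of the isolated regions varied among chromosomes. The same shares of the other regions were not computed by chromosome or segment, so a variation common to all regions cannot be told apart. The share found in both lists ranged from 15.9% (8.98 to 25.2%) on chromosome 13 to 31.1% (22.9 to 40.2%) on chromosomes 1 and 11, and these intervals overlapped. The share found only at 0.1 mg/L ranged from 37.0% (28.3 to 46.3%) on chromosome 1 to 56.7% (47.6 to 65.5%) on chromosome 3, with intervals that did not overlap. The share found only at 0.5 mg/L ranged from 18.9% (12.5 to 26.8%) on chromosome 3 to 35.5% (24.9 to 47.3%) on chromosome 7, again with overlap. These chromosomes are the extremes of 19. Along the chromosomes, the share found in both lists ran from 19.9% in segment 2 to 28.8% in segment 9, and these 2 intervals (14.0 to 26.9% and 22.1 to 36.3%) overlapped.

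The distance to the nearer neighbour showed how the isolated regions compared with regions in denser surroundings. The share found in both lists was highest, 31.8% (31.1 to 32.4%), where the neighbour was 5 to 20 kb away. From there it was lower at each longer distance, 28.3% at 20 to 50 kb, 26.7% at 50 to 100 kb and 24.3% over 100 kb. It was also low at the other end, 23.8% (22.7 to 24.95%) where the neighbour was within 1 kb, so isolation and crowding had similar shares. What filled the remainder differed. With a neighbour within 1 kb, 41.9% were found only at 0.1 mg/L and 34.3% only at 0.5 mg/L, whereas the isolated regions had 48.1 and 27.7%. The share only at 0.1 mg/L was already 45.0% at 20 to 50 kb and 45.8% at 50 to 100 kb. Among the isolated regions themselves no further trend was detectable at these numbers. The share found in both lists was 24.5% (22.2 to 26.9%) at 100 to 150 kb, 24.1% (19.4 to 29.3%) at 150 to 200 kb and 21.7% (15.2 to 29.6%) at 200 to 300 kb. Beyond 300 kb there were 14 regions, 4 of them in both lists.

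**Figure D3:**
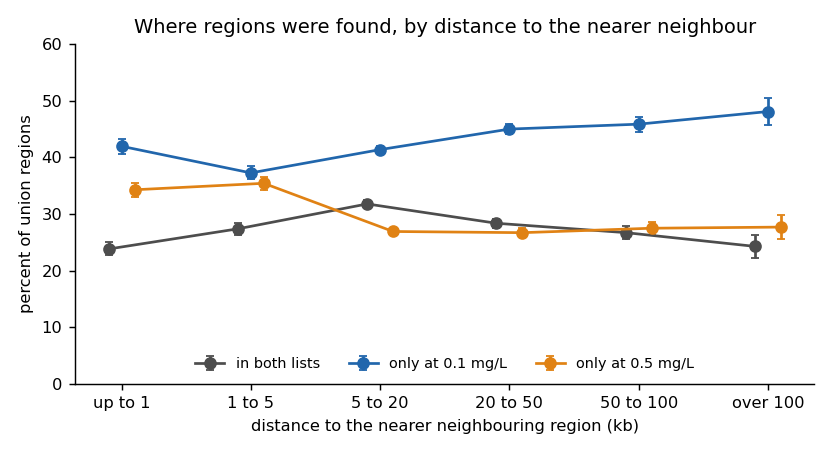
Percent of merged regions found in both lists, only at 0.1 mg/L or only at 0.5 mg/L NAA, by the distance to the nearer neighbouring region in kb, with 95% Clopper-Pearson intervals. The last points are the 1789 isolated regions, of which 24.3% were in both lists and 48.1% only at 0.1 mg/L.

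Strength was considered within each list, since the lists were called separately. The 0.1 mg/L list had 1295 regions at isolated places. Their median −log10 q-value was 3.29 (quartiles 2.204 and 5.71), against 3.78 for the other regions of the list, and their median rank was percentile 43.04 (counted from the weakest). Their median summit pileup was 8 fragments, against 10. The 0.5 mg/L list had 932 regions at isolated places. Their median −log10 q-value was 5.30 (quartiles 3.05 and 9.05), against 5.23, and their median rank was percentile 50.8. Their median summit pileup was 7 fragments, the same as that of the other regions. Isolated regions were thus on the weak side in the 0.1 mg/L list and of ordinary strength in the 0.5 mg/L list.

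Each list was cut into 4 equal bins by −log10 q-value. Of the isolated regions at 0.1 mg/L, 32.7% fell in the weakest bin and 22.4% in the strongest, against 24.9% of the other regions in each. A q-value under 1e-05 was reached by 29.7% of them (27.2 to 32.2%), against 33.6% of the others (33.1 to 34.1%). The strongest 10% of the list held 9.50% of them (7.96 to 11.2%), against 9.80% of the other regions. In the 0.5 mg/L list both ends were slightly fuller, with 28.9% in the weakest bin and 11.5% (9.50 to 13.7%) in the strongest 10%, against 9.87% of the others.

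Presence in both lists depended far more on strength than on isolation. In the 0.1 mg/L list, 5.66% of the isolated regions of the weakest bin had a partner at 0.5 mg/L, whereas 77.9% of those of the strongest bin did. At like strength the isolated regions had partners slightly less often. In the weakest bin the share was 5.66% (3.66 to 8.31%) for isolated and 9.49% (8.90 to 10.1%) for other regions, and in bin 2 it was 16.9% (12.8 to 21.7%) against 23.5% (22.7 to 24.4%). In bin 3 it was 47.4 against 48.0% and in the strongest 77.9 against 81.7%, where the interval of the isolated regions (72.7 to 82.6%) took in the other value. In the 0.5 mg/L list bin 2 differed most, with 35.1% (28.3 to 42.4%) against 43.2% (42.1 to 44.3%). The weakest bin had 21.2 against 22.2%, bin 3 had 57.7 against 58.4% and the strongest 73.8 against 77.9%. The isolated value was the lower in all 8 bins of both lists, and its interval lay below that of the other regions only in the lower 2 bins of the 0.1 mg/L list.

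**Figure D4:**
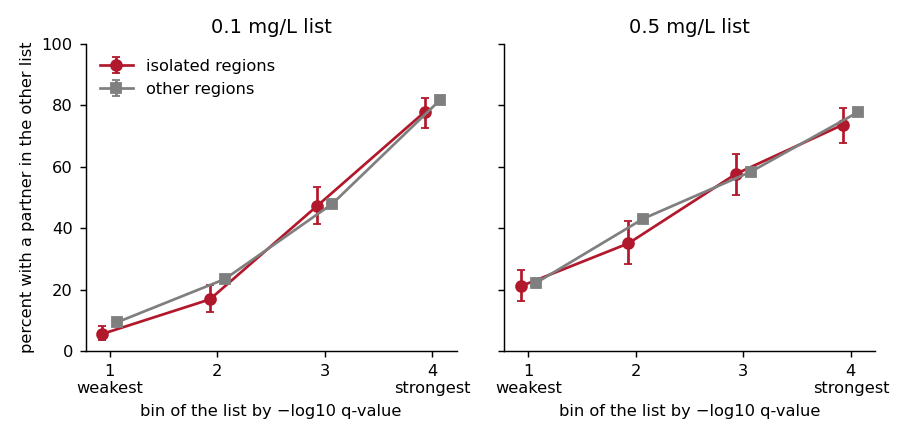
Percent of regions with an overlapping partner in the other list, for isolated and other regions, in 4 equal bins of the 0.1 mg/L list (left) and of the 0.5 mg/L list (right) by −log10 q-value, with 95% Clopper-Pearson intervals. Isolated regions run from 5.66 to 77.9% in the 0.1 mg/L list and from 21.2 to 73.8% in the 0.5 mg/L list, slightly below the other regions.

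The isolated regions found in both lists were strong in each. Their median rank was percentile 75.8 of the 0.1 mg/L list and percentile 67.5 of the 0.5 mg/L list. Those found only at 0.1 mg/L had a median rank at percentile 28.6 of their list, and those found only at 0.5 mg/L at percentile 31.3. The other regions had like ranks, percentiles 75.04 and 65.99 for those in both lists, and 33.7 and 33.8 for those only at 0.1 or only at 0.5 mg/L. In summit pileup, the medians at 0.1 mg/L were 14 fragments for regions in both lists and 7 fragments for those in that list only. At 0.5 mg/L they were 10 and 5 fragments. A q-value under 1e-05 was reached by 65.5% of the shared and 11.5% of the unshared isolated regions at 0.1 mg/L, and by 74.4 and 34.1% at 0.5 mg/L. Over all other regions it was reached by 33.6% at 0.1 mg/L and by 52.04% at 0.5 mg/L.

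The local background, the level the caller expected at the summit from the fragments in and around a region, was lower at isolated regions. In the 0.1 mg/L list, 26.0% of them (23.7 to 28.5%) were tested against the genome-wide level itself, the lowest the caller uses, against 17.5% (17.1 to 17.9%) of the other regions. In the 0.5 mg/L list the shares were 9.87% (8.03 to 12.0%) and 6.57% (6.29 to 6.85%). The median local background was 0.975 fragments against 1.18 fragments at 0.1 mg/L, and 0.345 fragments against 0.404 fragments at 0.5 mg/L. High backgrounds were rare. At least 5 times the genome-wide level was reached at 3 isolated regions of the 0.1 mg/L list (0.232%, against 0.843% of the others) and at 45 of the 0.5 mg/L list (4.83%, against 9.38%). The caller's local level was thus lower on both media, as measured in each library by itself. Fragments of near neighbours count in this background, and isolated regions were chosen to have none, so the difference is not independent of the choice. No control library is named, so a region's own fragments can count in it too. Their part was not tested.

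The strongest isolated regions had a high local background, in which their own fragments can count. Ordered by the higher −log10 q-value of the 2 lists, the first, on chromosome 17 at 30903302 to 30904133, was 832 bp wide. Its summit pileup was 1111 fragments at 0.1 mg/L over a background of 64.8 (fold 16.9, −log10 q-value 914). At 0.5 mg/L it was 709 fragments over a background of 32.5 (fold 21.2, −log10 q-value 652). The second, on chromosome 13 at 9523488 to 9523801, had 776 fragments over 21.1 at 0.1 mg/L (fold 35.2, −log10 q-value 884) and 549 fragments over 10.6 at 0.5 mg/L (fold 47.6, −log10 q-value 705). At 0.5 mg/L it was thus the stronger of the first 2. The third, on chromosome 15 at 15610568 to 15610798, had 276 fragments over 5.91 at 0.1 mg/L (fold 40.1, −log10 q-value 341) and 175 fragments over 2.70 at 0.5 mg/L (fold 47.6, −log10 q-value 239.99). By fold at 0.1 mg/L it came before the other two. These were the 3 isolated regions of the 0.1 mg/L list with a background of at least 5 times the genome-wide level. Their ranks ran from percentile 99.89 to percentile 99.99 of the lists. Their summits coincided exactly or within a few bases, at 30903555, at 9523648 and at 15610671 against 15610666.

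No isolated region found only at 0.1 mg/L came near these. The strongest of that kind lay on chromosome 12 at 82511566 to 82511816, with 22 fragments over the genome-wide background of 0.747 (fold 13.2, −log10 q-value 20.95). It was followed by a region of chromosome 11, 128411754 to 128412379, with a fold of 10.4 and a −log10 q-value of 15.6. The third was on chromosome 17 at 82849662 to 82850271, with a fold of 9.62 and a −log10 q-value of 14.3. The first was 251 bp wide. The last 2 were 626 and 610 bp wide, each with a summit pileup of 20 fragments. The strongest found only at 0.5 mg/L lay on chromosome 13 at 100469657 to 100469810, with 90 fragments over a background of 1.54 (fold 35.8, −log10 q-value 118). Its width of 154 bp was below the minimum of 207 bp at 0.1 mg/L. Next came chromosome 8 at 122500558 to 122500779, 222 bp wide (fold 15.6, −log10 q-value 27.2), followed by chromosome 11 at 82939199 to 82939387, 189 bp wide (fold 15.2, −log10 q-value 25.9). Of these 3 found only at 0.5 mg/L, 2 were below the 207 bp minimum of the other list. Such a width does not decide whether a place can be called at 0.1 mg/L. Of 430 shared isolated pairs, 329 had the narrower region in the 0.5 mg/L list. The shared region on chromosome 17 at 95039918 to 95040198 measured 191 bp in that list, yet 281 bp in the other. Why these 3 were missing from the 0.1 mg/L list was not tested.

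The isolated regions covered 0.582 Mb. Their median width was 286 bp (quartiles 226 and 385 bp), against 293 bp (227 and 405 bp) for the other regions, and the ratio of the medians was 0.976. The order-statistic interval of the median was 279 to 292 bp for isolated and 292 to 295 bp for other regions. Width went with presence far more than with isolation. Isolated regions in both lists had a median of 402 bp (quartiles 326 and 527 bp), those only at 0.1 mg/L 291 bp (240 and 367 bp) and those only at 0.5 mg/L 206 bp (174 and 255 bp). The corresponding medians of other regions were 419, 292 and 204 bp. Within a kind, the ratio of isolated to other medians was thus 0.959 for regions in both lists, 0.997 for those only at 0.1 mg/L and 1.01 for those only at 0.5 mg/L. A merged region that takes in a region of each list is at least as wide as either, so regions in both lists are wider partly by construction.

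**Figure D5:**
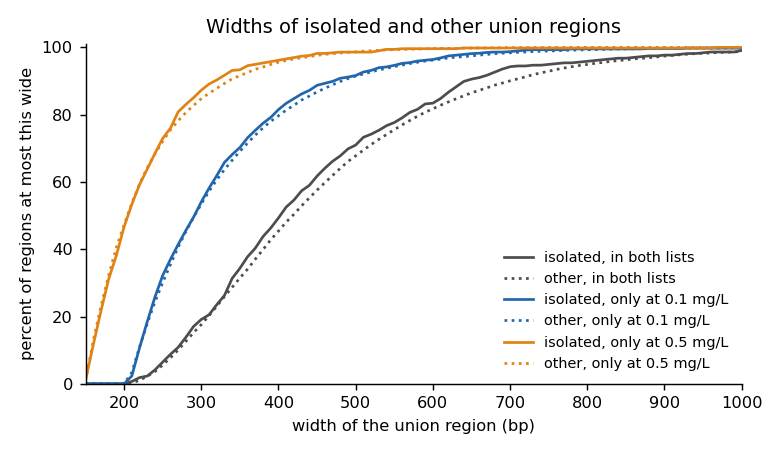
Cumulative percent of regions by width in bp, for isolated regions (solid lines) and other merged regions (dotted lines) found in both lists, only at 0.1 mg/L or only at 0.5 mg/L NAA. Solid and dotted lines nearly coincide within each kind, with medians of 402 and 419 bp, 291 and 292 bp, and 206 and 204 bp.

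Very wide isolated regions were few. There were 23 of at least 800 bp (1.29%, 0.817 to 1.92%), against 1.78% (1.67 to 1.90%) of the others. The widest, on chromosome 12 at 121489178 to 121490536, measured 1359 bp and joined a 559 bp region of the 0.1 mg/L list to a 901 bp region of the other list, with modest folds of 3.86 and 4.68. Its summits lay far apart, at 121490408 and 121489329. The next, on chromosome 6 at 99823949 to 99825236, measured 1288 bp and owed its whole width to the 0.1 mg/L list, since the 0.5 mg/L region inside it was 218 bp wide. At the narrow end, 251 isolated regions (14.0%) were under 207 bp and so could come only from the 0.5 mg/L list. The other regions had 14.8% of this kind.

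In 430 isolated places a lone region of each list overlapped the other. The summits lay a median of 51.5 bp apart (quartiles 18.3 and 100 bp), and 75.1% (70.7 to 79.1%) were within 100 bp, against 57 bp and 71.7% (71.0 to 72.5%) in 14960 other pairs. The region was narrower at 0.5 mg/L in 329 of the 430 pairs (76.5%), and in 76.4% of the other pairs. In median width the 0.1 mg/L regions of these pairs had 352.5 bp and the 0.5 mg/L regions 265 bp. The median fold was 5.89 at 0.1 mg/L and 7.20 at 0.5 mg/L, whereas the median summit pileups were 14 and 10 fragments. Folds hold a pseudocount of 1 and rest on unlike backgrounds, so their size is not compared between the lists. The ranks of fold had a Spearman's rho of 0.498 across the 430 pairs, which share their libraries and are not replicates. In the other pairs rho was 0.485. The median ratio of summit pileups, 0.5 over 0.1 mg/L, was 0.679 (quartiles 0.524 and 0.889), against 0.692 in the other pairs. In these measures the shared isolated regions were close to shared regions elsewhere.

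Isolation was also judged within a list, without regard to the other, so that the other list took no part in choosing the regions. In the 0.1 mg/L list 2885 regions had no neighbour of that list within 100 kb, and 34.7% of them (33.0 to 36.5%) overlapped a 0.5 mg/L region, against 40.9% (40.4 to 41.4%) of the remaining regions. In the 0.5 mg/L list there were 3543 such regions, and 48.2% (46.5 to 49.8%) overlapped a 0.1 mg/L region, against 50.5% (49.95 to 51.1%) of the rest. The lower share of partners among isolated regions was thus present in both lists, and it was larger in the 0.1 mg/L list.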

How the data were processed

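Nuclei of callus on NAA at 0.1 mg/L and at 0.5 mg/L were profiled by ATAC-seq, 1 library each. Paired-end reads were aligned by the authors to the N. benthamiana genome with BWA, and the authors called regions per library at a q-value threshold of 0.05. The submitters' processing notes name Trimmomatic 0.39 and MACS2 2.2.7.1. Handling of duplicates, organelle reads and the Tn5 offset is not given in the sources used here, and no control library is named. The deposited lists give positions and summits, a score (a rounded-down multiple of the −log10 q-value), the fold ratio of summit pileup over local background with a pseudocount of 1, and −log10 p-value and q-value, all within a library. Coordinates are counted from 1.

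Regions of both lists were merged at 1 bp overlap (Python 3.11.15, pandas 2.3.3, scipy 1.17.1). Distances run from edge to edge. Each fold and p-value was solved for an integer summit pileup with its background, which succeeded for 100% of the regions of both lists. The genome-wide background is the most frequent solution. Merging and solving were tested on simulated data. Read totals are not in peak lists, so depth could be judged only through this background, which is an indirect measure. Shares carry exact Clopper-Pearson 95% intervals, densities exact Poisson intervals, and medians order-statistic intervals. With 1 library per concentration no test was made. Members, bins and naming rules (farthest, strongest per kind, widest, nearest the limit, longest run, highest and lowest chromosomes) were chosen with earlier results of these data known. Scaffolds were left out. The alternatives changed the distance, the q-value, the number and width of regions, merging, neighbours, ends and overlap.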

Additional observations from a re-analysis of the deposited data

Results flagged for a closer look

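Signal was also present where isolation was not judged. Unplaced scaffolds held 1211 merged regions, which no comparison above used, and 748 of them were the only region of their scaffold. None of the 1211 had over 100 kb to a neighbour on both sides, so the scaffolds would add 0 isolated regions. The 38 first and last regions of the chromosomes were counted among the other regions, and 10 of them lay over 100 kb from their only neighbour. Of these, 8 were found only at 0.1 mg/L, 2 only at 0.5 mg/L and 0 in both lists.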

How the results depend on the processing

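In all, 40 values were recomputed under 12 alternatives; 23 stayed within their counting interval, or within 1.5 times for numbers, and 17 moved. No paired analysis was possible because there was 1 library at each concentration. The number of isolated regions was 7439 at over 50000 bp, 152 at over 200000 bp, 4394 at q-values under 1e-05, and 2885 and 3543 with neighbours of the 0.1 or the 0.5 mg/L list alone. Fewer regions or a shorter distance give more isolated regions by construction. The percent found in both lists was 27.2% at q-values under 0.01 (other regions 31.5%), 36.4% at q-values under 1e-05 (37.8%), 28.2% when each list gave the same number of strongest regions (31.8%) and 26.7% with regions up to 1000 bp apart merged (32.2%). It was 17.4% with overlap of at least 50% of both regions and 18.2% with summits within 100 bp. These stricter rules were applied to the isolated regions only and can only lower the share, so those moves are by construction. With neighbours of the 0.1 or the 0.5 mg/L list alone the percent found in both lists was 34.7 and 48.2%, counted over regions of that list, where the isolated regions of the merged set had 33.6 and 46.9%. The percent found only at 0.1 mg/L was 53.9% at over 200000 bp (other regions 42.4%), 22.8% at q-values under 1e-05 (23.5%), 36.8% with the same number from each list (34.2%) and 62.3% with the minimum width of the 0.1 mg/L list in both (57.7%). The cause of the other moves was not tested. The excess only at 0.1 mg/L was absent at q-values under 1e-05 and present under the other alternatives that rebuild the merged set. The ratio of median widths ran from 0.964 to 0.987.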
